A study of Mus musculus with 8 samples.

Results

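The change that wild-type mouse hepatoblasts underwent in biliary culture was described by setting the control library of cells differentiated to biliary epithelial cells (iBEC) against the control library of undifferentiated hepatoblasts (iHB). Levels were the deposited RPKM, read counts scaled to gene length and to sequencing depth, and genes were compared where the mean of these 2 libraries reached 1 RPKM. This took in 13446 of the 23467 genes of the table. Of the remainder, 4919 genes were listed at 0 in both libraries and 5102 were above 0 but under that level. The difference was log2(RPKM + 1) in iBEC minus iHB, and a gene was counted as higher or lower from a 2-fold difference on that scale, which understates the change of genes at low levels.

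Hepatoblasts came from livers of E14.5 embryos of strain B6;129 mixed. The control cells were labelled wild type and the mutant cells, called L1L2_Alb, carried Lats1-/-;Lats2f/fl;Alb-cre, in which albumin-driven Cre removes Lats2 only from cells that have used the albumin promoter, on top of a Lats1 loss in every cell. All cultures had been plated in medium with serum, epidermal and hepatocyte growth factors, insulin and dexamethasone, a glucocorticoid. iHBs were kept on dishes coated with collagen per the labels (with collagen or gelatin per the study's methods), iBECs were grown on Matrigel, a basement membrane extract, for 14 days, and cells differentiated to hepatocytes (iHP) received oncostatin M, a cytokine of the interleukin-6 family, at 12.5 ng/ml for 5 days per the labels. Of 8 libraries in all, 3 were of control cells, 1 for each stage, and 5 were of L1L2_Alb cells, 1 of iHB and 2 each of iHP and iBEC. Whether libraries came from the same embryos or litters was not given in the sources used here. The comparison of control cells therefore had 1 library a side, no replicate check and no test, and each value below describes these libraries. The library labelled L1L2_Alb iHB was not lower in the targeted genes, with 13.9 RPKM of Lats1 and 19.7 RPKM of Lats2, against 10.6 and 9.23 RPKM in the control. The study itself reported reduced LATS1/2 expression and higher YAP target genes in cultured L1L2_Alb cells. The deposited values are whole-gene levels and do not resolve the deleted part.

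Hepatoblasts are the bipotent cells of the fetal liver that give rise to hepatocytes and to biliary epithelial cells, the lining of the bile ducts. Biliary cells are known by simple epithelial keratins (Krt7, Krt19), the adhesion molecule Epcam, the transcription factor Sox9 and the secreted phosphoprotein Spp1, and their formation in the ductal plate depends on Notch and TGFβ signals. Hepatocytes in turn secrete most plasma proteins. In inflammation they raise a subset of these, the acute phase proteins, under interleukin-6 signals through STAT3 and under interleukin-1 and glucocorticoids, with C/EBP factors acting at many of the promoters.

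Among the gene lists examined, those of acute phase and plasma protein genes were mostly higher in the library labelled con_BEC than in iHB. Lists that were mostly lower included those of epithelial junction, contractile and neutrophil genes. These lists hold a small part of the genes past 2-fold. As deposited, 630 of the 13446 genes were higher in iBEC by at least 2-fold (4.69%) and 2094 were lower (15.6%), so that 23.1% of the genes past 2-fold were higher. The median over all genes was -0.45 on the log2 scale. The 10 highest genes held 18.7% of the summed RPKM in iBEC and 7.33% in iHB, and the part of this in the median was not tested. After both columns were scaled to their upper quartile, 925 genes were higher (6.88%) and 1106 lower (8.23%), a split of 45.5% higher, and the median was -0.092. Differences are given as deposited, and those near -0.45 are differences near the median gene. At 4-fold, 254 genes were higher and 366 lower.

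The most abundant RNAs changed with the culture. In iHB the leading gene was S100a9, a neutrophil calcium-binding protein, at 7494 RPKM, ahead of Apoe at 6882 RPKM and Trf (transferrin) at 6686 RPKM, and the fetal albumin homologue Afp was among the 10 highest at 3687 RPKM. In iBEC the leading genes were Spp1 at 23271 RPKM and Hpx (hemopexin, which binds heme) at 22015 RPKM. They were followed by Trf at 18663 RPKM, the fibrinogen chain Fgb at 15089 RPKM, Hp (haptoglobin) at 13682 RPKM and the fibrinogen chain Fgg at 13002 RPKM. Apart from Spp1, the 10 highest genes of iBEC all encode secreted plasma proteins that hepatocytes make.

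**Figure D1:**
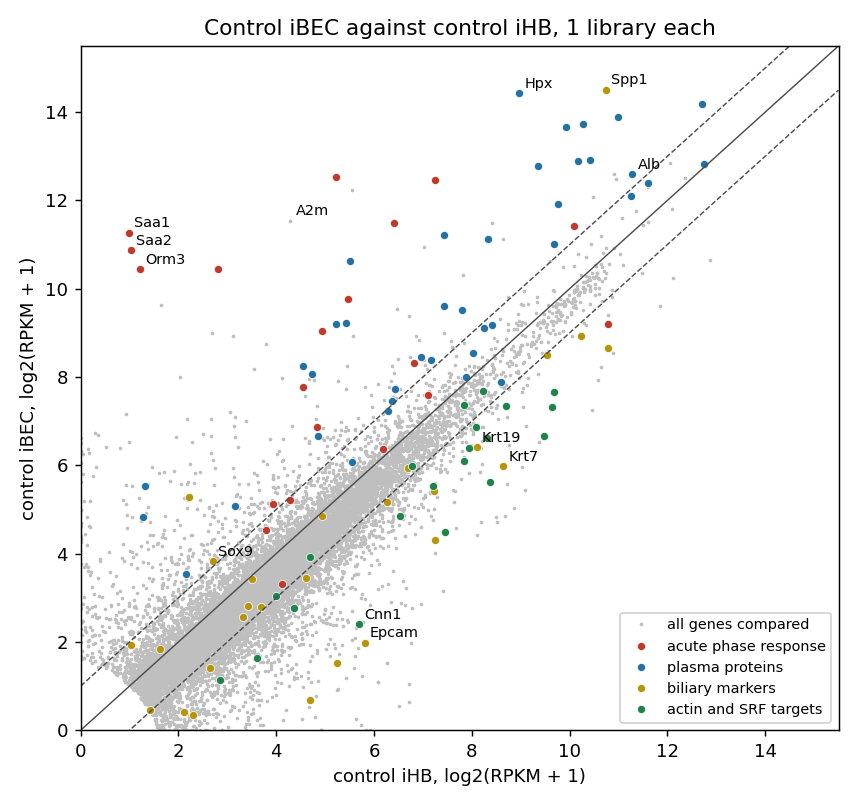
Level of each of the 13446 genes compared in control iHB (x axis) and control iBEC (y axis), both as log2(RPKM + 1), with 1 library each. The solid line marks equal levels and the dashed lines a 2-fold difference; most coloured points of the acute phase and plasma protein lists lie above the upper dashed line, and 16 of the 21 actin and SRF targets lie below the lower one.

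Promoters of Saa1, Saa2, Orm2 and Orm3, among the 10 largest increases, are shown first, with that of the fibrinogen chain Fga. Those of 2 contractile genes that were lower follow. The windows are examples from groups whose members moved together, and each holds a match. Orm1, also among the 10 largest increases, is not shown. The windows run from 250 bases before to 50 bases after the start site and are from RefSeq on GRCm38.p6. In Saa1, Saa2, Orm2, Orm3 and Fga the capitals mark matches, on either strand, to TTGCNNAA, a C/EBP-type motif, or TTCNNNGAA, a STAT-type motif, which in Fga do not overlap. In Myl9 and Cnn2 they mark a match to the CArG box bound by SRF.
Saa1: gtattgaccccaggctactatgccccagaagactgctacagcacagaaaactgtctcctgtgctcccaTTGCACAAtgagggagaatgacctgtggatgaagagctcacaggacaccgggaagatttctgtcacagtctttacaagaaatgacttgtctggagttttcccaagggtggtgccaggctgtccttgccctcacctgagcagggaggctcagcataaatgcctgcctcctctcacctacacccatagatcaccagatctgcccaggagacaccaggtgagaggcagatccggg
Saa2: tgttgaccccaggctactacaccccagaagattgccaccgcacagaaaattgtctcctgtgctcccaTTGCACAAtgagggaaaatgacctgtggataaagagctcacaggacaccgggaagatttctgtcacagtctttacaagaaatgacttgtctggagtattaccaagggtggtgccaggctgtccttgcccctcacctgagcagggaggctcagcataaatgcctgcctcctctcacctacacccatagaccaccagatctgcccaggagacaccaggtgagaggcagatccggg
Orm2: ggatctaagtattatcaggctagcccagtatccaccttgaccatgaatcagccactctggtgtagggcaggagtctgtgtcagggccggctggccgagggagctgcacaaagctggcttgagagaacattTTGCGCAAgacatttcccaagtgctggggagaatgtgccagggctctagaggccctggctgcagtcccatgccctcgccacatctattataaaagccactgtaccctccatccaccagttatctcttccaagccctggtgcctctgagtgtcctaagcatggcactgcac
Orm3: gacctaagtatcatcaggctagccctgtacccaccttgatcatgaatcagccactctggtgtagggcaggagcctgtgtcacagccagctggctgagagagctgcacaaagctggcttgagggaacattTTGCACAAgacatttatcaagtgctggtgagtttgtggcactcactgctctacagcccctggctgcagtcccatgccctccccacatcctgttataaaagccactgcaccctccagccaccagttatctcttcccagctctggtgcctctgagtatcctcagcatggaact
Fga: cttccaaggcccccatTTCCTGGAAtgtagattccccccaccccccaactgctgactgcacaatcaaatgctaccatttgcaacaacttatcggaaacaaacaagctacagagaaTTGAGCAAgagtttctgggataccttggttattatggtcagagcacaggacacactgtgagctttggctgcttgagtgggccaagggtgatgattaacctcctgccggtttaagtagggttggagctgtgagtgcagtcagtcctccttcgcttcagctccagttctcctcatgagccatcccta
Myl9: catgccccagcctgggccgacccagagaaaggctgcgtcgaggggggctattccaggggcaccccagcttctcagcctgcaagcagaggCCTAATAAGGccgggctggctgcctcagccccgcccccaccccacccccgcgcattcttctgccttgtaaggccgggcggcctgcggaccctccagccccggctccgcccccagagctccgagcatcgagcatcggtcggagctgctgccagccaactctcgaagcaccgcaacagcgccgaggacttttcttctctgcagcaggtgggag
Cnn2: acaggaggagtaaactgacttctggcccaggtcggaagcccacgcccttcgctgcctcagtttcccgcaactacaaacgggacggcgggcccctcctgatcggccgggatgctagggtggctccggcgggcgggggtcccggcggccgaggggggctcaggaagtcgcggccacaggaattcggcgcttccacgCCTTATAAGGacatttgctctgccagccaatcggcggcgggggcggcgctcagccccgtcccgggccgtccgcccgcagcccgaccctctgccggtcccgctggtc
The windows lie at chr7:46742931-46743230 (Saa1, minus strand), chr7:46751583-46751882 (Saa2, plus strand), chr4:63362199-63362498 (Orm2, plus strand), chr4:63355908-63356207 (Orm3, plus strand), chr3:83025903-83026202 (Fga, plus strand), chr2:156775214-156775513 (Myl9, plus strand) and chr10:79988350-79988649 (Cnn2, plus strand). Each ends in the first bases of the gene. The Saa1 and Saa2 windows, which face away from each other in the same gene cluster, were equal at 287 of 301 aligned positions (95.3%), and those of the Orm2 and Orm3 genes at 264 of 305 (86.6%). The C/EBP-type letters began 182 bases before the start site in Saa1, 183 in Saa2, 120 in Orm2 and 121 in Orm3. In the acute phase list 7 of 16 windows of 15 genes held them (43.8%), and in the plasma protein list 15 of 36 windows of 30 genes (41.7%), against 10.8% of all 32851 windows and 8.82% of the 12297 windows of genes compared. The STAT-type letters were in 3 of the 16 acute phase windows (18.8%) and in 5 of the 36 plasma protein windows (13.9%), against 8.30% of all windows. The CArG letters were in 5 of 19 windows of 17 actin and SRF targets (26.3%), against 1.63% of all windows. That list holds genes known as SRF targets, so its share describes how the list was made. These matches are letters in a window and no measure of binding.

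The acute phase genes were far higher in iBEC. Of the 20 listed genes, all of which passed the filter, 14 were higher by at least 2-fold and 1 was lower, with a list median of 2.63 on the log2 scale against -0.45 over all genes. Saa1, a serum amyloid A apolipoprotein of the acute phase, was at 0.984 RPKM in control iHB (17 reads), 8.24 RPKM in control iHP and 2472 RPKM in control iBEC (49864 reads). It was at 3.90 RPKM in L1L2_Alb iHB, at 2.77 and 1.62 RPKM in L1L2_Alb iHP and at 5.92 and 295 RPKM in L1L2_Alb iBEC. Control iBEC thus stood above all the other libraries, and the pair of L1L2_Alb iBEC libraries lay far apart. The control difference was 10.28, the largest of all genes compared, or 2512-fold on the linear scale. Its neighbour Saa2 went from 1.04 to 1871 RPKM, with 195 RPKM in the second L1L2_Alb iBEC library and 2.34 RPKM or less in the other libraries.

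The orosomucoid genes Orm1, Orm2 and Orm3 encode alpha-1-acid glycoproteins, which bind drugs and lipids in plasma. Orm1 was at 36.4 RPKM in control iHB, 729 RPKM in control iHP and 5934 RPKM in control iBEC, and at 6.72 RPKM in L1L2_Alb iHB, 82.8 and 40.02 RPKM in L1L2_Alb iHP and 707 and 1996 RPKM in L1L2_Alb iBEC. In each genotype iBEC was highest and iHB lowest. Orm2 went from 6.04 to 1389 RPKM in the control (a difference of 7.63) and Orm3 from 1.32 to 1396 RPKM (9.24). The Saa and Orm genes are near copies of each other, and how the counting shared reads among copies was not given in the sources used here, so the order within each family is uncertain. Summed over the 3 Orm genes the level was 43.7 RPKM in iHB and 8720 RPKM in iBEC.

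Serpina3n, a serine protease inhibitor and the mouse counterpart of antichymotrypsin, was at 151 RPKM in control iHB, 1398 RPKM in control iHP and 5634 RPKM in control iBEC. In L1L2_Alb cells it was at 6.55 RPKM in iHB, 180 and 145 RPKM in iHP and 2637 and 1977 RPKM in iBEC. Its relative Serpina3k, at 45.8 and 4824 RPKM in the control, was among the 10 largest increases, and 9 of the 10 Serpina3 genes that passed the filter were higher by at least 2-fold. Fgl1, a hepatocyte-secreted fibrinogen-like protein, went from 43.5 to 873 RPKM, the pentraxin Apcs from 29.7 to 523 RPKM and the pentraxin Crp from 22.3 to 218 RPKM. Lcn2, a siderophore-binding protein of neutrophils and injured epithelia, was at 1093 RPKM in iHB and 2763 RPKM in iBEC.

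Not all of the list took part. Saa3, the family member that macrophages and other non-hepatocytes also make, went the other way, from 1766 to 586 RPKM. Genes that code for parts of the interleukin-6 pathway were measured beside it. Socs3, the feedback inhibitor of STAT3, went from 27.5 to 115 RPKM and Osmr, the oncostatin M receptor, from 14.2 to 33.7 RPKM, while Stat3 was at 72.0 and 82.0 RPKM, Cebpd at 12.9 and 22.3 RPKM and the receptor Il6ra at 16.3 and 8.97 RPKM. Il6 itself was at 1.68 RPKM in iHB and 2.57 RPKM in iBEC. Oncostatin M was added to the iHP cultures and not, per the labels, to the iBEC cultures. In control iHP, which is set against the same iHB library, Saa1 and Saa2 stood at 8.24 and 2.34 RPKM, whereas Orm1, Hp and Serpina3n were at 729, 6160 and 1398 RPKM.

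**Figure D2:**
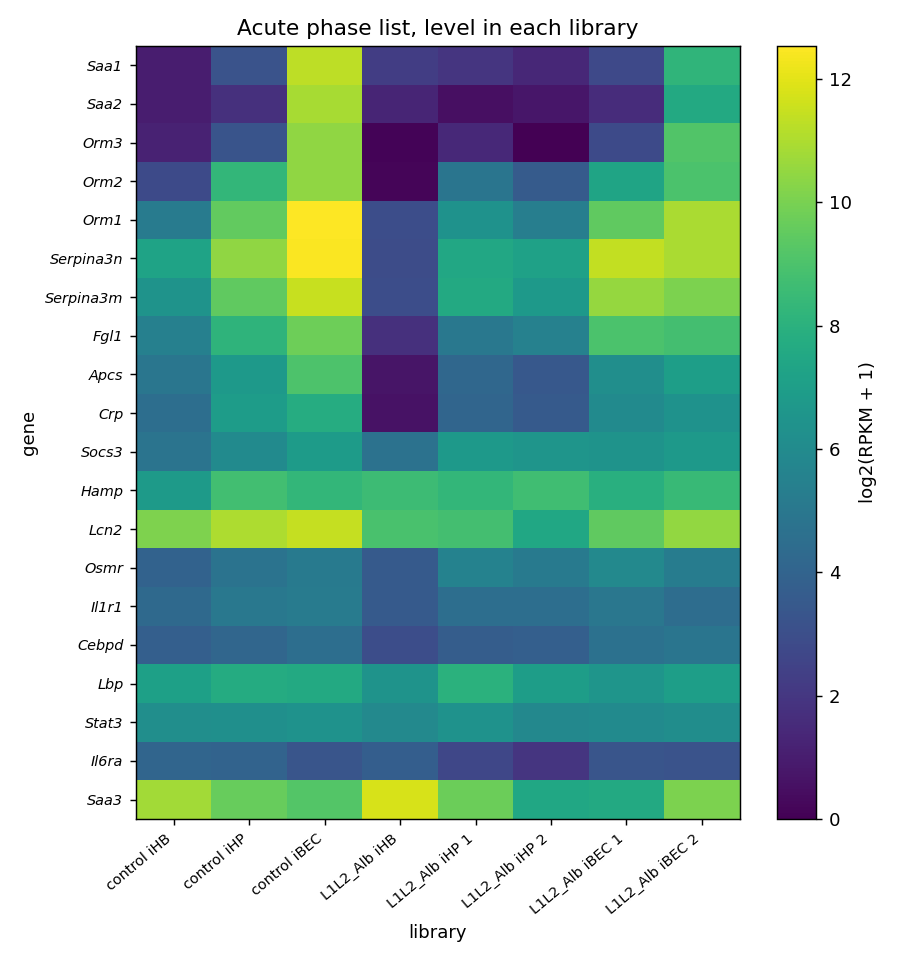
Level of the 20 acute phase genes (rows, ordered from the largest control difference down) in each of the 8 libraries (columns), as log2(RPKM + 1) on the colour scale. Saa1, Saa2 and Orm3 are bright in control iBEC and in the second L1L2_Alb iBEC library (295, 195 and 552 RPKM) and dark in the first (5.92, 2.03 and 5.95 RPKM), whereas Serpina3n is high in all 3 iBEC libraries.

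Genes of the plasma protein list, which was not limited to constitutive proteins, were higher as well. Of 39 plasma protein genes that passed the filter, of 42 listed, 29 were higher and 0 lower by at least 2-fold, with a median of 1.82, and after upper-quartile scaling 34 were higher and 0 lower. The list summed to 5.11% of the RPKM in iHB, 11.4% in control iHP and 20.2% in iBEC. Hpx had the largest difference of the list, 5.46: it was at 499 RPKM in control iHB, 3390 RPKM in control iHP and 22015 RPKM in control iBEC, and at 37.9 RPKM in L1L2_Alb iHB, 535 and 508 RPKM in L1L2_Alb iHP and 1974 and 5041 RPKM in L1L2_Alb iBEC. The inter-alpha-trypsin inhibitor chain Itih4 went from 44.8 to 1574 RPKM and the histidine-rich glycoprotein Hrg from 1.497 to 45.2 RPKM. Alb (albumin), itself the source of the Cre promoter, was at 2485 RPKM in control iHB, 3088 RPKM in control iHP and 6162 RPKM in control iBEC, a difference of 1.31. It was at 524 RPKM in L1L2_Alb iHB, 568 and 526 RPKM in L1L2_Alb iHP and 5499 and 3357 RPKM in L1L2_Alb iBEC. Ttr (transthyretin), at 259 and 371 RPKM in control iHB and iBEC, and Apoa1, at 2451 and 4404 RPKM, were within 2-fold.

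Further secreted hepatocyte products were among the 10 largest increases. A2m (alpha-2-macroglobulin), a broad protease inhibitor, was at 18.5 RPKM in control iHB, 166 RPKM in control iHP and 2983 RPKM in control iBEC (a difference of 7.26), and at 0.865 RPKM in L1L2_Alb iHB, 9.87 and 8.49 RPKM in L1L2_Alb iHP and 107 and 239 RPKM in L1L2_Alb iBEC. The major urinary proteins are pheromone-binding lipocalins of mature liver. Mup11 had no read in control iHB and 2961 reads in control iBEC (97.5 RPKM), which is at least 845-fold higher against a floor of 3 reads, and Mup14 had 2760 reads (89.7 RPKM), at least 788-fold higher. Of 20 Mup genes 16 passed the filter, and did so through their level in iBEC, so that their number has no bearing on the direction. They are near-identical copies whose reads cannot be assigned to a member with certainty. Their sum was 1.36 RPKM in iHB, 5.91 RPKM in iHP and 789 RPKM in iBEC, with 78.3 and 152 RPKM in L1L2_Alb iBEC. Ly6d, also among the 10, is a small GPI-anchored surface protein, and was at 2.14 RPKM in control iHB, 19.1 RPKM in control iHP and 787 RPKM in control iBEC, and at 2.12, 20.6, 20.6, 261 and 398 RPKM in the L1L2_Alb libraries in the order iHB, iHP and iBEC.

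Genes of bile acid handling and lipid synthesis were higher in control iBEC as well. Of 16 bile acid genes that passed the filter, of 23 listed, 12 were higher and 0 lower, with a median of 1.32. Members low in iHB could pass the filter only through iBEC, which fixes their direction. With no filter the list median was 1.01. The canalicular bile salt export pump Abcb11 went from 1.08 to 15.4 RPKM, the sterol half-transporter Abcg5 from 0.0311 RPKM (2 reads) to 6.24 RPKM (469 reads) and its partner Abcg8 from 0.0961 to 5.38 RPKM. The uptake carrier Slc10a1 was at 3.86 and 4.40 RPKM. Of 26 genes of cholesterol and fatty acid synthesis, 11 were higher and 0 lower (median 0.85), and in L1L2_Alb cells 2 were higher and 1 lower (median 0.037). The largest control differences were those of the desaturase Scd1, at 22.9 and 190 RPKM, and the cholesterol synthesis enzymes Dhcr7, at 8.57 and 38.2 RPKM, and Nsdhl, at 16.6 and 68.3 RPKM.

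Other hepatocyte functions were mixed. Of 21 hepatocyte transcription factors that passed the filter 5 were higher and 2 lower, and 7 were higher and 0 lower after upper-quartile scaling. Hnf4a, a main regulator of hepatocyte genes, was at 48.4 RPKM in control iHB, 64.4 RPKM in control iHP and 99.5 RPKM in control iBEC, and at 20.2 RPKM in L1L2_Alb iHB, 23.7 and 22.4 RPKM in L1L2_Alb iHP and 35.4 and 45.6 RPKM in L1L2_Alb iBEC. Its control difference was 1.03, so that it lies just past the 2-fold line. Nr1h4, the bile acid receptor FXR, went from 5.11 to 21.7 RPKM and its partner Rxra from 17.3 to 40.6 RPKM, whereas Prox1 was at 9.94 and 9.30 RPKM.

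Among 21 genes of the urea cycle and amino acid catabolism 7 were higher and 5 lower, with changes in both directions within the tyrosine pathway. Tat, the glucocorticoid-inducible tyrosine aminotransferase, went from 1.35 to 25.7 RPKM, and Hpd, the next enzyme of that pathway, from 11.8 RPKM (456 reads) to 0.0883 RPKM (4 reads). In glucose metabolism Fbp1, an enzyme of gluconeogenesis, went from 10.7 to 289 RPKM, whereas the hepatocyte glucose transporter Slc2a2 went from 22.5 to 0.984 RPKM and G6pc was at 8.76 and 8.54 RPKM. Fatty acid oxidation had 6 genes lower and 1 higher of 21, with a median of -0.32 that changed sign to 0.086 after upper-quartile scaling and to 0.0079 after quantile normalization. The lower genes included the thioesterases Acot1, at 51.9 and 6.93 RPKM, and Acot2, at 21.9 and 2.90 RPKM. Of 30 xenobiotic enzymes 9 were higher, with Cyp2d26 at 8.31 and 84.0 RPKM, and 5 were lower, with the retinal dehydrogenase Aldh1a1 at 82.6 and 11.2 RPKM.

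Metallothioneins, the metal-binding proteins that metals and glucocorticoids induce, were higher without exception. Mt1 was at 1912 and 6184 RPKM, Mt2 at 1973 and 5707 RPKM and Mt3 at 7.71 and 487 RPKM in control iHB and iBEC, and all 4 genes of the family were higher by at least 2-fold. Mt1 was at 4285 RPKM in control iHP and between 2242 and 6384 RPKM in the L1L2_Alb libraries. In the wider list of metal transport 8 of 18 genes were higher and 2 lower, the latter including Tfrc (the transferrin receptor) at 45.7 and 16.8 RPKM, while the zinc importer Slc39a14 was at 27.0 and 130 RPKM.

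**Figure D3:**
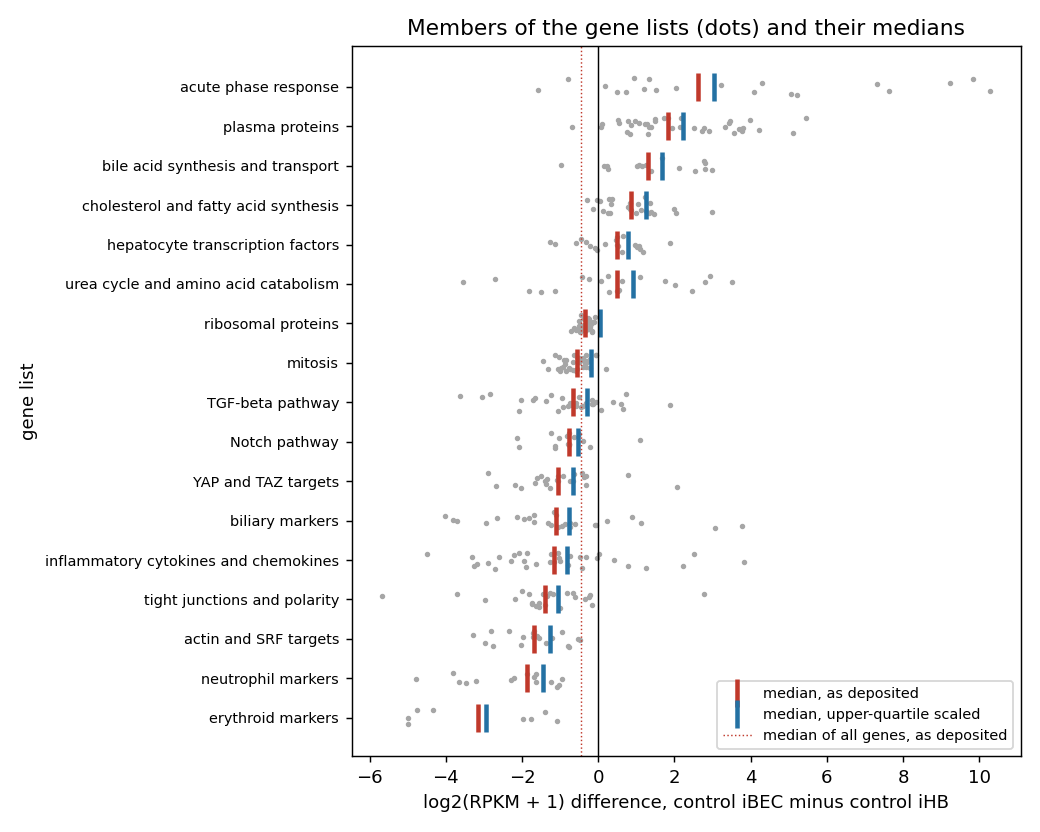
Difference of each member (dots) of 17 gene lists on the log2(RPKM + 1) scale, control iBEC minus control iHB, with the list median as deposited and after upper-quartile scaling. The dotted line is the median of all genes, -0.45; the acute phase and plasma protein medians lie to its right at 2.63 and 1.82 and the actin and SRF median to its left at -1.68, and scaling shifts each list median to the right.

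Most biliary markers were not higher in the library labelled con_BEC. Of 29 listed markers 27 passed the filter, and of these 3 were higher by at least 2-fold, 15 were lower and 9 were within 2-fold, with a median of -1.10, below that of all genes. After upper-quartile scaling 4 were higher and 10 lower, with a median of -0.78. Krt7 was at 400 RPKM in control iHB, 361 RPKM in control iHP and 62.3 RPKM in control iBEC. In L1L2_Alb cells it was at 1470 RPKM in iHB, 1361 and 1167 RPKM in iHP and 319 and 568 RPKM in iBEC. Control iBEC held the lowest level of all the libraries, and the control difference was -2.66. Krt19 was at 273, 168 and 83.7 RPKM in control iHB, iHP and iBEC, and at 400 RPKM in L1L2_Alb iHB, 377 and 493 RPKM in L1L2_Alb iHP and 254 and 355 RPKM in L1L2_Alb iBEC. It too was lowest in control iBEC, 3.26-fold below control iHB. Their keratin partners Krt8, at 1774 and 400 RPKM in control iHB and iBEC, and Krt18, at 1202 and 485 RPKM, were lower as well.

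Epcam, a cell adhesion molecule of hepatoblasts and duct cells, was at 55.0 RPKM in control iHB, 23.6 RPKM in control iHP and 2.96 RPKM in control iBEC, a difference of -3.82. In L1L2_Alb cells it was at 20.8 RPKM in iHB, 35.9 and 39.2 RPKM in iHP and 25.9 and 21.1 RPKM in iBEC. The drop in the control was thus not seen in L1L2_Alb iBEC, where Epcam was within 2-fold of L1L2_Alb iHB. The largest difference of the list, -4.02, was that of Ggt1, the gamma-glutamyltransferase of fetal liver and duct cells, at 24.8 RPKM in iHB (1428 reads) and 0.595 RPKM in iBEC (40 reads). Cldn4 was at 150 and 41.5 RPKM and Pkhd1, the fibrocystin of biliary cilia, at 3.92 and 0.279 RPKM.

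The 3 biliary markers that were higher were Spp1, Aqp1 and Sox9. Spp1 (osteopontin) was at 1706 RPKM in control iHB, 3188 RPKM in control iHP and 23271 RPKM in control iBEC, a difference of 3.77, and at 428 RPKM in L1L2_Alb iHB, 1068 and 2045 RPKM in L1L2_Alb iHP and 6027 and 10760 RPKM in L1L2_Alb iBEC. Aqp1, a water channel of cholangiocytes and also of endothelium and red cells, was at 3.68 RPKM in control iHB, 3.84 RPKM in control iHP and 38.2 RPKM in control iBEC, and at 39.4 and 25.8 RPKM in L1L2_Alb iBEC against 0.884 RPKM or less in the other L1L2_Alb libraries. In both genotypes iBEC was highest for these genes. Sox9 was at 5.53, 8.87 and 13.3 RPKM in control iHB, iHP and iBEC, and at 5.03 RPKM in L1L2_Alb iHB and 4.89 and 6.87 RPKM in L1L2_Alb iBEC, with a difference of 1.13 in the control and 0.18 in L1L2_Alb cells. The summed level of the biliary list, 6818 RPKM in iHB and 24948 RPKM in iBEC, was carried by Spp1, while the list median was negative. Of the 27 markers that passed the filter these 3 went the way of the label, and 15, with Krt7, Krt19 and Epcam among them, went against it. The library is called here by its label.

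**Figure D4:**
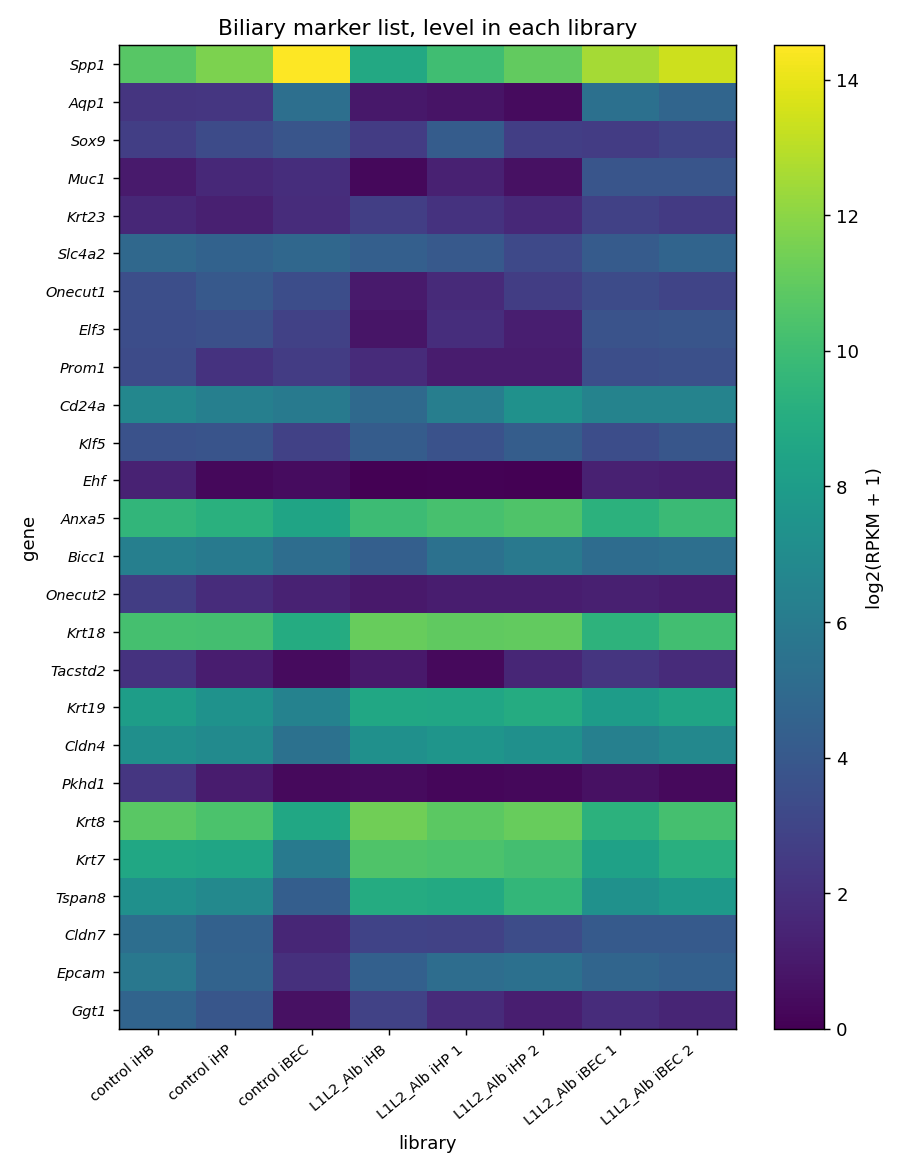
Level of 26 of the 27 biliary markers that passed the filter (rows, ordered from the largest control difference down) in the 8 libraries (columns), as log2(RPKM + 1). The top rows, Spp1, Aqp1 and Sox9, are highest in control iBEC among the control libraries, whereas Krt7, Krt19, Krt8, Cldn7, Epcam and Ggt1 near the bottom are lowest there.

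Hepatoblast genes changed unevenly. Afp, the alpha-fetoprotein of fetal liver, was at 3687 RPKM in control iHB, 4219 RPKM in control iHP and 779 RPKM in control iBEC, and at 3959 RPKM in L1L2_Alb iHB, 2673 and 2603 RPKM in L1L2_Alb iHP and 1313 and 1391 RPKM in L1L2_Alb iBEC. In each genotype it was lowest in iBEC. Peg3, a paternally expressed zinc finger gene, went the same way, from 244 to 55.3 RPKM, as did the zinc finger gene Plagl1, from 10.01 to 1.00 RPKM. Other fetal genes were within 2-fold: Gpc3 was at 202 and 356 RPKM, H19 at 1290 and 1686 RPKM, Igf2 at 200 and 236 RPKM and Dlk1 at 3.25 and 4.36 RPKM in control iHB and iBEC. Over the list 0 of 15 genes were higher and 4 lower, with a median of -0.31 that changed sign to 0.028 after upper-quartile scaling.

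Epithelial junctions were lower in iBEC. Of 26 genes of tight junctions and polarity 18 were lower and 1 higher by at least 2-fold, with a median of -1.40, and 14 were still lower after upper-quartile scaling. Cldn6, a claudin of embryonic epithelia, was at 105 RPKM in control iHB (4491 reads), 21.2 RPKM in control iHP and 1.08 RPKM in control iBEC (54 reads), 97.1-fold below iHB, and at 12.4, 6.41, 8.29, 9.49 and 8.86 RPKM in the L1L2_Alb libraries in the order iHB, iHP and iBEC. The L1L2_Alb iHB library thus began lower and hardly differed from its iBECs. Cldn7 was at 36.7 and 1.89 RPKM in control iHB and iBEC, and at 6.71 RPKM in L1L2_Alb iHB and 16.2 and 16.5 RPKM in L1L2_Alb iBEC, where it was higher. The tight junction components Ocln, at 16.3 and 2.85 RPKM, Tjp1, at 53.9 and 23.3 RPKM, and Cgn, at 77.2 and 8.94 RPKM, were lower in the control, as was Cdh1 (E-cadherin) at 156 and 37.9 RPKM. The member that was higher, Cldn14, was listed at 0 in control iHB and was at 5.85 RPKM in control iBEC. Of the 11 claudins that passed the filter 6 were lower and 1 higher. Among those within 2-fold were Cldn1, at 4.22 and 3.13 RPKM, and Cldn2, at 36.3 and 31.2 RPKM.

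Desmosomal and stratified epithelial genes shared this direction. Of 28 other keratins and squamous genes listed, 15 were under the filter, which members low in iBEC could pass only through iHB. Of the 13 that passed, 8 were lower and 1 was higher. With no filter the list median was -0.51, against -1.36 with it and -0.31 over all genes with no filter. The lower genes included Dsg2, a desmosomal cadherin, at 100 and 8.26 RPKM, Sfn at 42.4 and 4.63 RPKM and Krt20 at 201 and 41.8 RPKM. The largest decrease of all genes, -6.07, was that of Psca, a GPI-anchored surface antigen of several epithelia, at 104 RPKM in control iHB (2532 reads), 88.7 RPKM in control iHP and 0.563 RPKM in control iBEC (16 reads). In L1L2_Alb cells Psca was at 205 RPKM in iHB, 182 and 107 RPKM in iHP and 69.3 and 40.1 RPKM in iBEC. Fgfbp1, which releases fibroblast growth factors from matrix, went from 48.3 to 0.196 RPKM in the control, against 73.3 RPKM in L1L2_Alb iHB and 32.6 and 30.6 RPKM in L1L2_Alb iBEC. Both genes were near 0 in control iBEC and in no other library.

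Contractile and matrix genes were lower too. Of 21 actin and SRF targets 16 were lower and 0 higher, with the other 5 also below 0, and the median was -1.68 as deposited and -1.27 after upper-quartile scaling, where 14 were lower. Acta2, the smooth muscle actin, was at 712 RPKM in control iHB, 439 RPKM in control iHP and 101 RPKM in control iBEC, and at 385 RPKM in L1L2_Alb iHB, 76.2 and 154 RPKM in L1L2_Alb iHP and 133 and 65.5 RPKM in L1L2_Alb iBEC. Cnn1 (calponin), at 50.7 and 4.29 RPKM in control iHB and iBEC, Myl9, a myosin regulatory light chain, at 174 and 21.5 RPKM, and Tagln, at 799 and 158 RPKM, went with it, and Cnn2, whose promoter is shown above with that of Myl9, was at 246 and 83.2 RPKM. In L1L2_Alb cells 11 of the 21 genes were lower and 0 higher. Eln (elastin) was at 90.3 RPKM in control iHB (9715 reads), 10.7 RPKM in control iHP and 0.470 RPKM in control iBEC (59 reads), and at 1.16 RPKM or less in every L1L2_Alb library, so that control iHB was the library that stood apart. Of 26 interstitial matrix genes 12 were lower and 0 higher, with Postn at 203 and 23.1 RPKM, whereas the collagen Col3a1 was at 991 and 659 RPKM and Fn1 (fibronectin) at 2146 and 3113 RPKM.

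Basement membrane genes, which code for proteins of the kind that Matrigel supplies, were lower in 9 of 20 cases and higher in 0. Lamb3, a laminin chain of epithelia, was at 27.2 and 0.723 RPKM, the perlecan gene Hspg2 at 86.7 and 16.5 RPKM and Lama5 at 82.1 and 23.6 RPKM, while Col4a1 was at 579 and 351 RPKM. Of 17 integrins 9 were lower and 2 higher. Itgb4, the partner chain in hemidesmosomes, was at 9.83 and 1.69 RPKM, whereas Itga7, a laminin receptor chain, was at 3.50 and 31.9 RPKM. Among matrix proteases and inhibitors 3 of 20 were higher and 6 lower, with a median of -0.12 that changed sign after either scaling. They included Timp1, a metalloproteinase inhibitor, at 224 and 1268 RPKM, and Plau (urokinase), at 40.2 and 4.12 RPKM.

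Pathways known for roles in biliary fate were examined next. Of 17 Notch genes that passed the filter 6 were lower and 1 higher, with a median of -0.78, and 3 were lower after upper-quartile scaling. The ligand Jag1, whose loss of function causes bile duct paucity, was at 25.4 RPKM in control iHB, 17.0 RPKM in control iHP and 5.05 RPKM in control iBEC, and at 15.9 RPKM in L1L2_Alb iHB, 10.4 and 15.9 RPKM in L1L2_Alb iHP and 4.40 and 4.30 RPKM in L1L2_Alb iBEC. In both genotypes it was lowest in iBEC. The receptor Notch2 was at 17.3 and 7.35 RPKM in control iHB and iBEC and the transcriptional partner Rbpj at 30.1 and 14.3 RPKM. Among the targets, Hes1 was at 15.6 and 13.4 RPKM, Hey1 at 1.61 and 0.532 RPKM (101 and 39 reads) and Heyl at 3.37 and 0.0398 RPKM (435 and 6 reads). For Heyl, control iHB alone stood apart, since no other library of either genotype exceeded 0.213 RPKM. The Heyl difference in L1L2_Alb cells was 0.064. The Notch gene that was higher in control iBEC was the ligand Dll1, at 0.482 and 2.16 RPKM.

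In the TGFβ pathway 10 of 32 genes were lower and 1 higher, with a median of -0.65. After upper-quartile scaling 8 were lower and 4 higher, with a median of -0.30. The ligand Tgfb2 went from 7.83 to 1.18 RPKM in the control, and Tgfb1 from 26.5 to 15.48 RPKM, while the receptor Tgfbr2 was at 32.2 and 29.4 RPKM. Matrix proteins that store or activate the ligand had the largest differences: Thbs1 was at 520 and 61.3 RPKM, Ltbp4 at 25.3 and 1.13 RPKM and Ltbp2 at 36.6 and 4.22 RPKM. The target Smad7, at 6.78 and 5.98 RPKM, was within 2-fold, and the activin subunit Inhbb was higher at 3.64 and 16.03 RPKM.

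Among the targets of YAP and TAZ, the effectors that LATS kinases restrain, 14 of 24 were lower and 1 higher, with a median of -1.07 and, after upper-quartile scaling, 8 lower and 2 higher with a median of -0.67. Ctgf was at 523 RPKM in control iHB, 387 RPKM in control iHP and 201 RPKM in control iBEC, and at 2469 RPKM in L1L2_Alb iHB, 1183 and 1168 RPKM in L1L2_Alb iHP and 412 and 771 RPKM in L1L2_Alb iBEC. Cyr61 was at 194 and 91.4 RPKM in control iHB and iBEC, and Ankrd1, at 270 and 201 RPKM, was within 2-fold. The largest decrease of the list was that of F3 (tissue factor), at 70.4 and 8.69 RPKM, and the exception was Igfbp3, at 115 and 485 RPKM. Of 20 pathway components 5 were lower (25%) and 0 higher, against 15.6% and 4.69% of all genes. After upper-quartile scaling 1 was lower, against 8.23% of all genes. Yap1 was at 28.3 and 23.9 RPKM, Wwtr1, which encodes TAZ, at 20.3 and 9.21 RPKM and the scaffold Amot at 35.3 and 2.89 RPKM. The promoter letters GGAATG, a TEAD-type motif, were in 7 of 19 windows of this list (36.8%), in 7 of 19 of the actin and SRF list (36.8%), in 9 of 36 of the plasma protein list (25%), in 2 of 16 of the acute phase list (12.5%) and in 14.7% of all windows. In the Wnt list, with 7 genes under the filter, 5 of the 20 that passed were lower (25%) and 0 higher. After upper-quartile scaling 4 were lower. In the EGF family 4 of 19 were higher (21.1%), with the receptor Egfr at 43.5 and 111 RPKM, and 3 lower (15.8%), the latter near the share of all genes.

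Most growth and housekeeping genes were within 2-fold, as were most of all genes compared, of which 4.69% were higher and 15.6% lower. For DNA replication 5 of 35 genes were lower (14.3%) and 1 higher (median -0.73). For mitosis 5 of 38 were lower (13.2%) and 0 higher (median -0.57). Both shares of lower genes were near that of all genes. Mki67, a marker of cycling cells, was at 19.2 and 6.44 RPKM, Top2a at 43.4 and 20.8 RPKM and Cdk1 at 23.5 and 18.5 RPKM, while the ribonucleotide reductase subunit Rrm2 was higher at 43.2 and 96.2 RPKM. After upper-quartile scaling 0 replication genes and 1 mitosis gene were lower. None of the 34 ribosomal protein genes and none of the 29 respiratory chain genes was past 2-fold, with ribosomal differences between -0.71 and -0.08. The ribosomal median of -0.35 changed sign to 0.054 and the respiratory chain median of -0.17 to 0.24 after upper-quartile scaling. In glycolysis 1 of 18 genes was lower and 0 higher. Among CDK inhibitors and p53 targets 4 of 28 were lower and 1 higher, and the cell-cycle inhibitor Cdkn2a was at 18.7 and 27.0 RPKM and Cdkn1a at 169 and 127 RPKM. Hypoxia genes had 2 lower and 0 higher of 20 (1 lower and 3 higher after upper-quartile scaling), genes of the unfolded protein response 1 higher and 0 lower of 26, NRF2 targets 2 higher and 1 lower of 23 and cilia genes 0 higher and 3 lower of 20. Immediate-early and AP-1 genes had 1 higher and 2 lower of 22 (6 higher and 1 lower after upper-quartile scaling). Other lists in turn moved more. Genes of ductal ion and water transport had 3 higher (15.8%) and 5 lower (26.3%) of 19, against 4.69% and 15.6% of all genes. Epithelial-mesenchymal genes had 0 higher and 7 lower of 17 (41.2%), with a median of -0.80, and 7 were still lower after upper-quartile scaling.

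Inflammatory signals went the opposite way from the acute phase proteins. Of 33 cytokine and chemokine genes 19 were lower and 4 higher, with a median of -1.17. Ccl20 was at 26.8 RPKM in control iHB (1221 reads) and 0.226 RPKM in control iBEC (12 reads), Ccl2 at 85.2 and 19.6 RPKM and Cxcl10 at 24.1 and 1.505 RPKM. The members that were higher were Il33, an alarmin of epithelial and stromal nuclei, at 2.55 and 49.4 RPKM, the neutrophil attractants Cxcl1, at 15.2 and 75.1 RPKM, and Cxcl5, at 0.658 and 2.96 RPKM, and Cxcl14, at 1.23 and 11.8 RPKM. Of 30 interferon-stimulated genes 14 were lower, among them Isg15 at 14.6 and 3.66 RPKM, and 1, the GTPase Iigp1, was higher at 1.59 and 32.2 RPKM. Irg1, the itaconate-producing enzyme of activated macrophages, was among the 10 largest decreases, at 51.9 RPKM in control iHB (3820 reads), 18.98 RPKM in control iHP and 0.0930 RPKM in control iBEC (8 reads), and it was near 0 in both L1L2_Alb iBEC libraries (0.0597 and 0.162 RPKM) against 38.3 RPKM in L1L2_Alb iHB.

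Markers of other cells of the fetal liver moved with the comparison. All 15 neutrophil markers that passed the filter were below 0 and 14 were lower by at least 2-fold. Their sum was 15466 RPKM in control iHB, 10495 RPKM in control iHP and 3453 RPKM in control iBEC, and in L1L2_Alb cells 5094 RPKM in iHB, 516 and 71.2 RPKM in iHP and 156 and 2806 RPKM in iBEC. S100a9 was at 7494 and 1617 RPKM in control iHB and iBEC, the granule protease Elane at 120 and 55.8 RPKM and Camp (cathelicidin) at 409 and 27.9 RPKM, so none of these was at 0 in either. In RNA of a whole culture fewer cells of a type and less RNA per cell cannot be told apart. Erythroid markers summed to 307 RPKM in control iHB, 226 RPKM in control iHP and 24.2 RPKM in control iBEC. Hba-a1 and Hba-a2, the alpha globin copies, were among the 10 largest decreases at 67.1 and 66.6 RPKM in iHB, 48.3 and 48.0 RPKM in iHP and 1.13 and 1.12 RPKM in iBEC. Their reads cannot be told apart. Megakaryocyte and mast cell markers summed to 193 RPKM in control iHB and 60.2 RPKM in control iBEC, and lymphocyte markers to 13.5 and 2.63 RPKM. Of these lists 8 erythroid, 3 megakaryocyte and mast cell and 13 lymphocyte markers were under the filter, which members at low levels passed through iHB. With no filter the list medians were -1.35, -1.43 and -0.23, against -3.15, -1.87 and -1.36 with it.

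Macrophage markers were mixed, with 7 of 21 lower and 1 higher. Their sum was 4251 RPKM in control iHB and 2835 RPKM in control iBEC, and between 1407 and 6227 RPKM in the other libraries. Cd68 was at 133 and 135 RPKM and Emr1 (F4/80) at 46.6 and 38.2 RPKM in control iHB and iBEC, whereas the scavenger receptor Marco was at 364 and 25.4 RPKM and H2-Aa, an antigen-presenting chain, had 91 reads in iHB and 0 in iBEC. Stellate and fibroblast markers had 2 higher and 3 lower of 15, with Col1a1 at 1467 and 1100 RPKM, Des (desmin) at 68.7 and 16.9 RPKM and Lrat, the vitamin A storage enzyme of stellate cells, at 0.0657 RPKM (10 reads) and 4.02 RPKM (715 reads). Endothelial markers summed to 131 and 135 RPKM, with Pecam1 at 4.01 and 0.574 RPKM and the hyaluronan receptor Lyve1 at 2.75 and 22.1 RPKM. Mesothelial markers summed to 619 and 285 RPKM, with 1 higher and 3 lower of 8. Msln was at 261 and 103 RPKM, whereas Podxl was at 14.8 and 43.5 RPKM. A large part of this sum was Krt19, also a biliary marker, at 273 and 83.7 RPKM. The sums of the plasma protein list, 34405 and 146930 RPKM, and of the acute phase list, 3646 and 27330 RPKM, went against those of the blood cell lists, and the part of changed cell makeup in these differences was not tested.

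The 10 largest decreases also held transcripts of uncertain assignment. Nxf3, an X-linked RNA export factor relative, and 5730412P04Rik, a long noncoding RNA that RefSeq places within the span of Nxf3, were at 56.0 and 59.1 RPKM in control iHB, 12.9 and 13.5 RPKM in control iHP and listed at 0 in control iBEC. They were between 15.3 and 47.4 RPKM in all 5 L1L2_Alb libraries. Since the genes overlap, their reads cannot be told apart, and control iBEC was the only library without them. Mir467a-3, Mir467a-6 and Mir467a-10 tied for the last place with the same values, 29.0 RPKM in control iHB (38 reads), 11.6 RPKM in control iHP and 0 in control iBEC. They are copies of a short RNA gene, and 38 reads against 0 at a floor of 3 gives at least 14.8-fold.

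The same change in culture was then followed in L1L2_Alb cells, in 3 libraries that the control comparison did not use, as the mean of 2 iBEC libraries against 1 iHB library. Over the same 13446 genes, 1030 were higher by at least 2-fold (7.66%) and 904 lower (6.72%), with a median of -0.11. Of the 630 genes higher in control iBEC, 597 (94.8%) were also higher in L1L2_Alb iBEC, against 41.4% of all genes compared, and 457 (72.5%) were so by at least 2-fold. The medians over the 630 genes were 1.76 in the control and 1.73 in L1L2_Alb cells. Of the 2094 genes lower in control iBEC, 1744 (83.3%) were lower in L1L2_Alb iBEC, against 58.6% of all genes, and 610 (29.1%) by at least 2-fold, and the medians were -1.36 and -0.62. The genes were chosen by the control values, which fixes the control medians, and the medians of all genes differed as well, so the sizes are not compared. The difference between genotypes was not tested.

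By list, the acute phase median was 2.63 in the control and 2.61 in L1L2_Alb cells, but 1.71 and 3.91 with the first and the second L1L2_Alb iBEC library alone. The plasma protein median was 1.82 in the control and 3.51 in L1L2_Alb cells, whose iHB library began at a lower level, with sums of 19413 RPKM in L1L2_Alb iHB against 34405 RPKM in control iHB. The actin and SRF medians were -1.68 and -1.38. The biliary median was -1.10 in the control and 0.18 in L1L2_Alb cells, where 10 markers were higher and 5 lower, and the tight junction median was -1.40 and -0.38. Muc1, an apical mucin, was at 1.05 and 2.79 RPKM in control iHB and iBEC and at 0.265 RPKM in L1L2_Alb iHB against 12.9 and 13.4 RPKM in L1L2_Alb iBEC. The metalloproteinase Mmp7, which is made by reactive duct cells, was at 0.880 and 4.28 RPKM in the control (22 and 125 reads), and at 0.595 RPKM in L1L2_Alb iHB and 48.4 and 65.0 RPKM in L1L2_Alb iBEC.

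**Figure D5:**
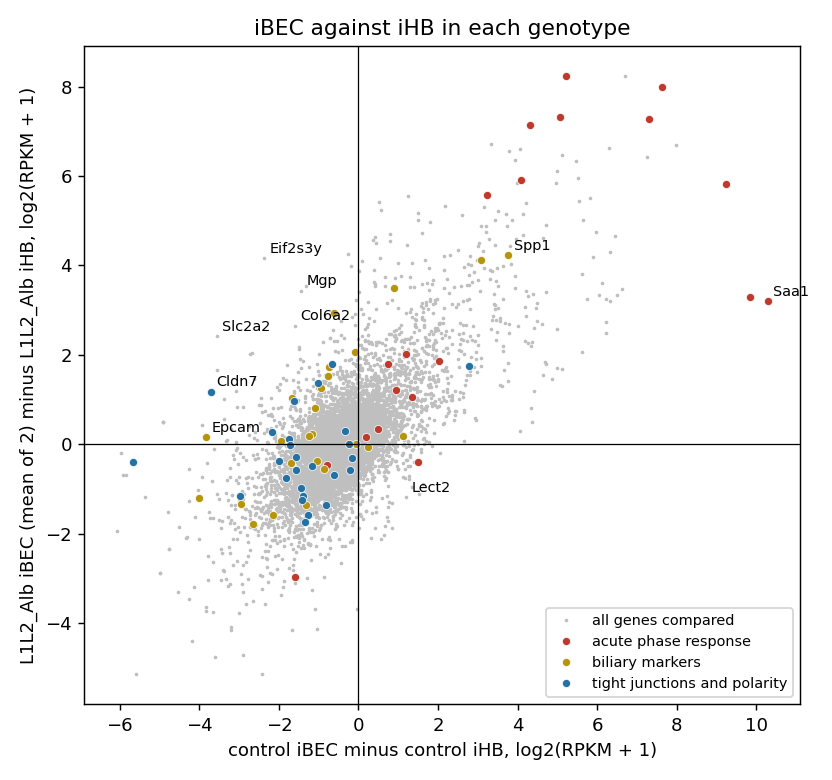
Difference of each of the 13446 genes between iBEC and iHB in the control (x axis, 1 library a side) and in L1L2_Alb cells (y axis, mean of 2 iBEC libraries against 1 iHB library), both on the log2(RPKM + 1) scale. Acute phase genes lie mostly in the upper right, with Saa1 at 10.28 and 3.21; Slc2a2, Cldn7, Mgp, Col6a2 and Eif2s3y lie in the upper left, lower in control iBEC and higher in L1L2_Alb iBEC.

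Genes past 2-fold in the control that went furthest the other way in L1L2_Alb cells were few. Among the 630 higher genes 2, Lect2 and the unnamed transcript 4930486L24Rik, were lower by at least 2-fold in L1L2_Alb iBEC, and among the 2094 lower genes 55 were higher by at least 2-fold. Lect2, a hepatocyte-secreted chemotactic factor and Wnt target, was at 2.64 and 7.38 RPKM in control iHB and iBEC and at 9.58 RPKM in L1L2_Alb iHB against 3.17 and 4.16 RPKM in L1L2_Alb iBEC. Egfr, the receptor of the growth factor in the medium, was at 105 RPKM in L1L2_Alb iHB and 43.9 and 64.7 RPKM in L1L2_Alb iBEC. For Rdh10, a retinol dehydrogenase, these levels were 9.77 and 32.1 RPKM in the control against 74.5 RPKM and then 25.5 and 62.2 RPKM, and for Tgm2, a transglutaminase, 188 and 452 RPKM against 381 RPKM and then 168 and 293 RPKM. For each of these genes L1L2_Alb iHB stood above control iHB. Slc2a2 went from 22.5 to 0.984 RPKM in the control, and was at 0.244 RPKM in L1L2_Alb iHB and 10.1 and 3.00 RPKM in L1L2_Alb iBEC. The stromal genes Mgp (matrix Gla protein), at 163 and 59.4 RPKM in the control, and Col6a2, at 97.0 and 31.3 RPKM, were at 19.5 and 5.09 RPKM in L1L2_Alb iHB. They were at 426 and 114 RPKM, and at 59.3 and 23.4 RPKM, in L1L2_Alb iBEC.

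The Y-linked genes Eif2s3y and Ddx3y were also in that group. Eif2s3y was at 34.6, 31.3 and 5.91 RPKM in control iHB, iHP and iBEC, at 0 in L1L2_Alb iHB and the first L1L2_Alb iHP library, at 37.3 RPKM in the second and at 11.7 and 24.4 RPKM in L1L2_Alb iBEC. Xist, transcribed from the inactive X chromosome of females, was at 30.9 and 28.5 RPKM in control iHB and iHP, 5.68 RPKM in control iBEC and 0.0602 RPKM in the second L1L2_Alb iHP library. All 3 control libraries held both Y-linked and Xist RNA, in unlike amounts, and the part of sex makeup in the other differences was not tested.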

How the data were processed

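RNA of 8 cultures was sequenced (TruSeq libraries, Illumina HiSeq). The authors deposited 1 table of RPKM values, and the submitters' processing notes name Bowtie 0.12.2 and mm8; the counting of shared reads and strand were not given in the sources used here. Of 23471 entries, 4 whose symbol stood on more than 1 row were left out. Reads per library, recovered from the steps between low values, ran from 18436865 to 33229075 (28460336 in control iHB, 33229075 in control iBEC), with whole reads for 14343 of 17774 genes (80.7%), and they cover counting error only.

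Differences were of log2(RPKM + 1), for genes whose mean in the 2 control libraries was 1 RPKM or more. With 1 library a side no test was made. Upper-quartile scaling (percentile 75 of genes above 0), quantile normalization, a pseudocount of 0.1, no filter, a mean of at least 5 RPKM, 4-fold and leaving out each L1L2_Alb iBEC library were the alternatives. The members and the 49 lists were chosen with earlier results of these data known. Named were the 10 largest increases and decreases, key genes and the 3 largest differences of each list, and the 5 genes in each direction that went furthest the opposite way in L1L2_Alb cells. Other genes, such as Serpina3n, Crp, Socs3, Krt8, Cldn4, Cdh1, Rbpj, Igfbp3, Muc1 and Xist, were named after their values were seen. Some list members count in their lists but are not reported here by name. Promoter windows were matched by symbol and searched on both strands. Python 3.11.15, pandas 2.3.3, numpy 2.4.6 and matplotlib 3.10.9 were used, and the procedure was tested on simulated data.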

Additional observations from a re-analysis of the deposited data

Results flagged for a closer look

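In 8 of the genes that the rule names the control difference was past 2-fold in one direction and both L1L2_Alb iBEC libraries lay past 2-fold in the other, both against the same L1L2_Alb iHB library. The difference between genotypes was not tested. Higher in the control were Lect2, at 1.20 on the log2 scale against -1.34 and -1.04 in the L1L2_Alb libraries, and 4930486L24Rik, at 1.51 against -1.07 and -1.18. Lower in the control were Cldn7, at -3.71 against 1.16 and 1.18, and the glucose transporter Slc2a2, at -3.56 against 3.15 and 1.69. The stromal genes Mgp, at -1.44 against 4.38 and 2.49, and Col6a2, at -1.60 against 3.31 and 2.00, were lower in the control as well. The Y-linked genes Eif2s3y, at -2.37 against 3.66 and 4.67, and Ddx3y, at -1.32 against 3.07 and 3.99, were listed at 0 in L1L2_Alb iHB.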

How the results depend on the processing

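No paired analysis was possible because the control comparison had 1 library a side and its labels share no replicate numbers across the groups compared. Genes higher by at least 2-fold numbered 964 after quantile normalization and 254 at 4-fold, and genes lower numbered 1106 after upper-quartile scaling, 1000 after quantile normalization and 366 at 4-fold. The median of all genes was -0.092 after upper-quartile scaling, -0.046 after quantile normalization, -0.51 with a pseudocount of 0.1 and -0.31 with no filter. In the same order, the biliary median was -0.78, -0.76, -1.23 and -1.05 and the plasma protein median 2.22, 1.81, 1.85 and 1.77. After upper-quartile scaling and quantile normalization the actin and SRF median was -1.27 and -1.35 and the tight junction median -1.04 and -1.01. Genes that went the same way in L1L2_Alb cells numbered 897 of those higher after quantile normalization, and 878 and 859 of those lower after upper-quartile scaling and quantile normalization. With either L1L2_Alb iBEC library left out they numbered 583 to 608 of those higher and 1680 to 1742 of those lower.

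List medians near 0 changed sign. After upper-quartile scaling and quantile normalization they were 0.028 and 0.14 for hepatoblast genes, 0.086 and 0.0079 for fatty acid oxidation, 0.025 and 0.026 for CDK inhibitors and p53 targets, 0.26 and 0.27 for matrix proteases (0.050 with no filter), 0.22 and 0.30 for the EGF family and 0.24 and 0.13 for the respiratory chain. The ribosomal median was 0.054 after upper-quartile scaling and the cilia median 0.045 after quantile normalization. With no filter the immediate-early median was -0.026 and the stellate and fibroblast median -0.13, which was -0.15 at a mean of at least 5 RPKM. The cause was not tested.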

Other observations

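Further genes, chosen after their values were seen, differed between control iHB and control iBEC. The regenerating islet-derived lectins Reg3b and Reg3g, antimicrobial proteins of gut and injured epithelia, were at 0.741 RPKM and listed at 0 in control iHB, and at 83.7 and 30.9 RPKM in control iBEC. In L1L2_Alb iBEC Reg3b was at 3.36 and 44.0 RPKM and Reg3g at 0.200 and 7.80 RPKM, so that the libraries of that pair lay apart as they did for Saa1. The trefoil factor Tff3, a product of mucous cells, went from 98.0 to 6.11 RPKM. In the mucosal and gut-type list 5 of the 11 genes that passed the filter were higher and 4 lower, and 19 were under it.

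The X-linked Bex1, Bex2 and Bex4 went together, from 275 to 20.5 RPKM, from 37.7 to 2.30 RPKM and from 168 to 7.89 RPKM. They were at 210, 43.0 and 196 RPKM in L1L2_Alb iHB, at 75.1, 12.7 and 56.6 RPKM in the first L1L2_Alb iBEC library and at 188, 29.6 and 116 RPKM in the second. The imprinted CDK inhibitor Cdkn1c went from 20.1 to 1.82 RPKM. Foxj1, a regulator of motile cilia, was at 10.5 RPKM in control iHB against 0.397 RPKM in control iBEC, and no other library exceeded 1.33 RPKM.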
